A study of Mus musculus with 9 samples.

Results

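The mitochondrial ribosomal protein genes were defined as the probe sets annotated with exactly 1 gene whose symbol begins with Mrpl or Mrps and continues with a digit. Of the 22690 probe sets on the array, 127 met this rule. They stood for 74 of the 12393 genes with a probe set, 27 with an Mrps symbol and 47 with an Mrpl symbol, and all 74 were bright enough to be among the 9397 genes tested. A further 3 probe sets named such a gene together with another gene and were left out.

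RNA came from primary mouse megakaryocytes, the large marrow cells that release platelets, grown from bone marrow or fetal liver in thrombopoietin, the cytokine that drives their maturation. Cells were enriched by flow sorting for high surface CD41, an integrin chain of this lineage, and separated by size on forward scatter. There were 2 arrays of stage MKP, 2 of MK3, 2 of MK4 and 3 of MK6. The numbers in the later names match harvests on culture days 3, 4 and 6, while no day is given for MKP. All stages share the thrombopoietin culture. The labels give no strain, age or genotype, do not say which arrays came from marrow and which from fetal liver, and leave unsaid whether replicate arrays stem from separate cultures. The p-values therefore reflect the spread among these arrays alone, and that spread may be technical. The replicate numbers used here follow the order of deposit and only name arrays.

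Mitochondria make a small set of respiratory chain and ATP synthase subunits on ribosomes of their own. The ribosomal RNAs of these particles are encoded in mitochondrial DNA, but every protein is encoded in the nucleus, made in the cytosol and imported. Some of the proteins descend from bacterial ribosomes and others are found only in mitochondria. The small subunit decodes the messenger RNA, and the large subunit joins the amino acids and threads the chain through an exit tunnel at the inner membrane. Promoters of these genes and of many other nuclear genes for mitochondrial proteins are known for sites of ETS-family factors such as GABP and of the factors NRF1 and YY1.

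Promoter sequence was available from RefSeq (GRCm38.p6) for 65 of the 74 genes, as windows of 250 bases before to 50 bases after a start. Mrps34 and Mrpl19, the members called between MK6 and MKP below, are among those without a window, so all promoter results leave them out. In 45 of the 65 the start is the outermost base of the gene in the RefSeq table, and in the other 20 it lies inside the gene's span. The sequences shown are from the 45, so that they lie outside the gene. The windows of Mrpl37 and Mrpl12, shown first, belong to the genes with the largest differences between MK6 and MKP among these 45. The next 4 were chosen after their sequences were seen, because their last 100 bases before the start hold the most different motifs, and then the most matches, of ETS, NRF1 and YY1 among members with no opposite start that near. The final run is the whole interval between the starts of 2 genes that face away from each other. Letters are given 5′ to 3′ on the strand of the gene, and on the plus strand for the shared interval. Capitals mark CCGGAAG (ETS), TGCGCA (NRF1) and AAGATGG (YY1) on either strand.
Mrpl37, chr4:107066867-107066966, minus strand: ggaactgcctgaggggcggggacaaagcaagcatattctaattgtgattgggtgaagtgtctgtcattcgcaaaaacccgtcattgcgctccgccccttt
Mrpl12, chr11:120484537-120484636, plus strand: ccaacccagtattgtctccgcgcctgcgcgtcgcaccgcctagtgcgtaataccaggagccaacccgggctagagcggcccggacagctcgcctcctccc
Mrps18a, chr17:46110904-46111003, plus strand: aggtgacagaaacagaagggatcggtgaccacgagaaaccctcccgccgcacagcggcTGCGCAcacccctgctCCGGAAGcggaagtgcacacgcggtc
Mrpl52, chr14:54426809-54426908, plus strand: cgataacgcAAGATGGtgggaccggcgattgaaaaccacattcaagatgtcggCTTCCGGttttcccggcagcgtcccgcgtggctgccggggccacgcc
Mrpl32, chr13:14613038-14613137, minus strand: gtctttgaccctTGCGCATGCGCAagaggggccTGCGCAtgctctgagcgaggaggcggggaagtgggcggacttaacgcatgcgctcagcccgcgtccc
Mrpl17, chr7:105811088-105811187, minus strand: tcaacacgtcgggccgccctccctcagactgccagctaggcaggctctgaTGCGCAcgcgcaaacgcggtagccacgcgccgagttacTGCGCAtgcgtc
Mrps11 and Mrpl46, chr7:78783090-78783130, plus strand: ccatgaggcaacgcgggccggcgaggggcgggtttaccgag

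Values are scaled signals, the deposited intensities after each array was multiplied to a common trimmed mean, and differences are on the log2(signal + 15.2) scale, which understates the change of dim genes. Trimmed means as deposited ran from 102 to 221, with the lowest on MK6 replicates 3 (102) and 1 (103). For beta-actin, the 3′ control probe set over the 5′ one gave a ratio of 1.49, 1.33 and 3.21 on MK6 replicates 1, 2 and 3, against 0.957 to 1.09 on the 6 arrays of the earlier stages. That for Gapdh was 3.27 on MK6 replicate 3, against 0.805 to 1.13 elsewhere. Of 11 megakaryocyte markers, 9 were on the array and all 9 passed the filter, with summed signals of 9378 and 9944 in MKP, 9744 and 20930.5 in MK3, 17601 and 21819 in MK4 and 16775.5 to 19995 in MK6. All 9 neutrophil markers passed as well, with sums of 37014 and 44918 in MKP, 33285 and 34119 in MK3, 24246 and 26607 in MK4 and 6392 to 27443 in MK6, and 5 of the 9 were called lower in MK6 than in MKP. All 8 macrophage markers passed, with sums of 8929 and 11526 in MKP, 12429 and 23795 in MK3, 11068 and 14354 in MK4 and 9462 to 22251 in MK6. All 6 hepatocyte markers on the array passed, with sums of 576 and 600.2 in MKP, 3045 and 3921 in MK3, 453 and 1027 in MK4 and 101 to 306 in MK6. Mast cell sums were 648 and 901 in MKP, 868 and 1546 in MK3, 488 and 815 in MK4 and 395 to 522 in MK6. Over the 9 arrays the erythroid sums ran from 346 to 606, the lymphocyte sums from 177 to 345, and the fibroblast and endothelial sums from 383 to 782. Between MK6 and MKP, 3 megakaryocyte markers were called higher, 1 macrophage marker higher and 1 lower, 1 mast cell and 1 hepatocyte marker lower, 1 fibroblast or endothelial marker higher, and no erythroid or lymphocyte marker. Mcpt4, Cd3e, Cd2 and Cdh5 were under the filter on all 9 arrays. The part of these other cells, of RNA quality and of array brightness in the results below was not tested except where a value is given, and in sorted bulk samples fewer cells of a type and less RNA per cell cannot be told apart.

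Over the whole course, Mrps34 and Mrpl19 fell in MK6 relative to MKP, and none of the other 72 mitochondrial ribosomal protein genes passed the test. Mrps34, a mitochondria-specific protein of the small subunit that is needed in mice for the stability of that subunit, had scaled signals of 538 and 364 on the MKP arrays, 284 and 294 on the MK3 arrays, 312 and 252 on the MK4 arrays and 96.2, 98.5 and 91.9 on the MK6 arrays. The 3 MK6 arrays lay close together and below all 6 arrays of the earlier stages. The difference of MK6 from MKP was -2.05 ± 0.23 (SE, limma, adjusted p = 0.0032, 95% interval -2.56 to -1.54), which is 4.13-fold lower in MK6. It was also the only member called by the moderated F test over the stages (adjusted p = 0.0092), which called 2.86% of all genes. All 3 MK6 arrays also had actin ratios above those of every earlier array, so the ratio and the stage cannot be told apart. The call ended when the actin ratio entered the model (-1.97, adjusted p = 0.20) and without MKP replicate 1, on which Mrps34 read higher, at -1.77 (adjusted p = 0.083). Mrps34 has 1 probe set on the array, so no second one could be set beside it.

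Mrpl19, the mitochondrial form of a bacterial large-subunit protein, had signals of 374 and 299 in MKP, 262 and 311 in MK3, 207 and 274 in MK4 and 71.2, 206 and 114 in MK6. The MK6 arrays spread widely, but all lay below the MKP arrays. The difference was -1.37 ± 0.35 (SE, limma, adjusted p = 0.0451, 95% interval -2.14 to -0.60). A second bright probe set of Mrpl19 gave -1.50 (adjusted p = 0.033 over all probe sets above the filter), with signals of 233 and 302 in MKP and 52.7, 145 and 74.6 in MK6. The call was close to the threshold: it held in 7 of 21 alternative settings and missed in 14, with differences between -2.02 and -0.66. It was missed at -1.05 (adjusted p = 0.0585) when MK6 replicate 1 was left out and at -0.66 (adjusted p = 0.37) when both MK6 arrays with low trimmed means, 1 and 3, were left out. Leaving out any 1 of the MKP arrays, the MK4 arrays, MK3 replicate 2 or MK6 replicate 3 gave -1.52 to -1.22 (adjusted p 0.0501 to 0.32).

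**Figure D1:**
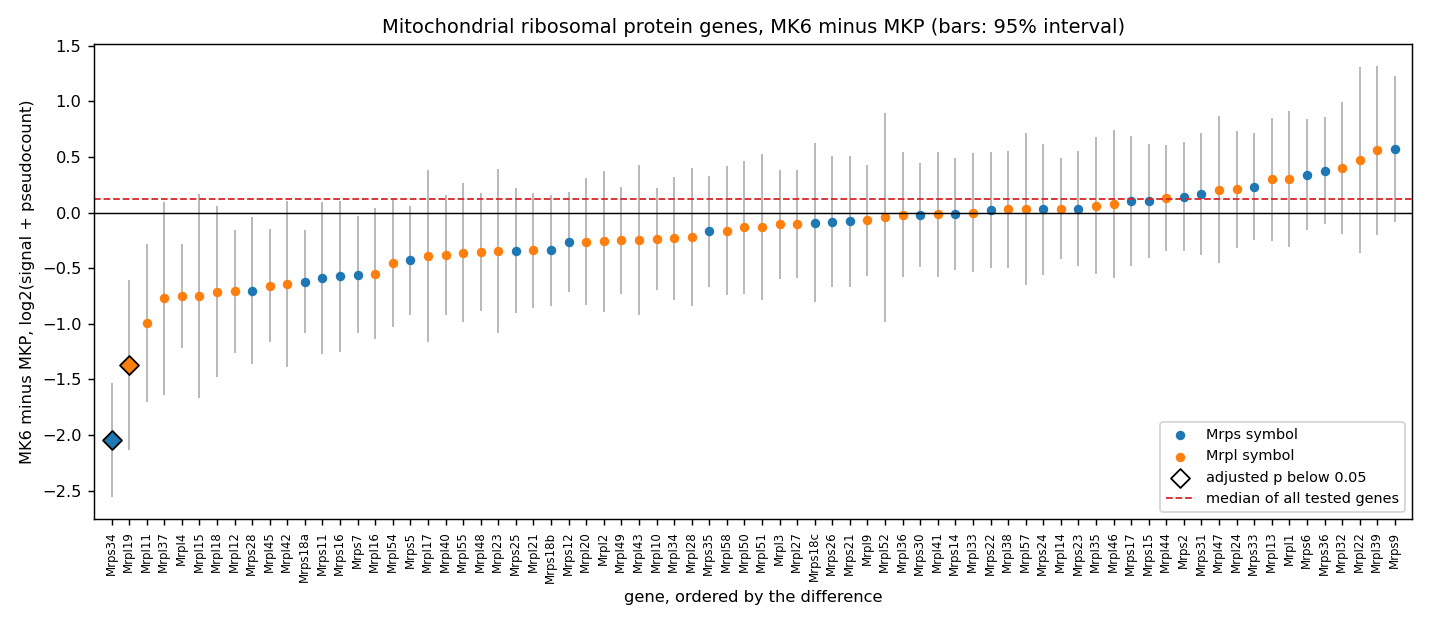
Difference of MK6 from MKP for each of the 74 mitochondrial ribosomal protein genes, on the log2(signal + pseudocount) scale (y axis), ordered from lowest to highest (x axis), with bars for the 95% interval of the fit and the dashed line at the median of all 9397 tested genes (0.13). The 2 diamonds, Mrps34 at -2.05 and Mrpl19 at -1.37, are the called genes, and 50 of the 74 points lie below 0.

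These 2 of 74 calls, both in the lower direction, stood against a background in which limma called 5.84% of all tested genes, 2.81% higher and 3.03% lower in MK6. At an unadjusted p below 0.05 there were 9 members (12.2%), all lower in MK6, beside 23.9% of all genes in either direction and 11.2% of all genes lower in MK6. In the lower direction the members' share of adjusted calls (2.70%) was near that of all genes, as was their share at an unadjusted p. No member was called higher. Single arrays moved the number of members called: 0 without MKP replicate 1, 1 without MKP replicate 2, MK3 replicate 2, either MK4 array, MK6 replicate 1 or MK6 replicate 3, and 5 without MK6 replicate 2. Calls over all genes moved as well, from 3 genes without MKP replicate 1 to 1099 without MK6 replicate 2.

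As a group the members lay slightly below the tested genes as a whole. Their median difference of MK6 from MKP was -0.13 (quartiles -0.39 and 0.04), against 0.13 over all tested genes, and 50 of 74 differences (67.6%) were negative, against 40.9% of all genes. With arrays scaled to a common median the values were -0.25 for the members and 0.0051 for all genes, so the gap between them was like that with trimmed-mean scaling while both moved down. The gap narrowed with a stricter filter (-0.13 and 0.033) and without MK6 replicate 1 (-0.030 and 0.085). The members were also brighter: their median log2 level per array was 7.71 to 8.32, against 7.24 to 7.45 for all tested genes. What brightness adds to the gap was not tested. All 3 MK6 arrays were below both MKP arrays for 21 members (28.4%, background 18.8%), and all 3 were above both for 4 members, Mrps33, Mrps6, Mrps36 and Mrps9 (5.41%, background 24.5%). The member median depended on single arrays: it was -0.085 without MKP replicate 1, -0.24 without MKP replicate 2, -0.030 without MK6 replicate 1 and -0.24 without MK6 replicate 3. Taken array by array, each gene's difference from its own MKP mean was computed. The median of these over the members was -0.38, -0.12 and -0.015 log2 units on MK6 replicates 1, 2 and 3. Over all genes it was 0.23, -0.0046 and 0.17.

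The members' differences had an SD of 0.43, against 0.70 over all tested genes, and 72 of 74 (97.3%) were under 1 log2 unit in size, against 87.5% of all genes. Other lists were alike in this: the SD was 0.30 over 45 cytosolic ribosomal protein genes and 0.40 over 83 respiratory chain and ATP synthase subunits, of which all 45 (100%) and 96.4% in turn were under 1 log2 unit. For 52 of 74 members (70.3%) the whole 95% interval lay within 1 log2 unit of 0, that is, within a 2-fold change either way on this scale, against 66.7% of the cytosolic ribosomal protein genes, 71.1% of the respiratory chain and ATP synthase subunits and 38.6% of all genes. For the other 20 members besides Mrps34 and Mrpl19 the interval reached past a 2-fold change on one side, so a change of that size lay within the error of these arrays. In simulated data of the same size 85.8% of 4-fold changes and 20.8% of 2-fold changes were called. These simulations had normal noise and fewer changed genes than were called here. The adjusted threshold depends on how many genes change, so these shares do not carry over to the measured data.

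Among the proteins with bacterial counterparts in the large subunit, 29 genes in all, 1 fell (Mrpl19) and the median difference was -0.23. That is 3.45% of the group, near the 3.03% of all genes called lower. Mrpl11 and Mrpl12 belong to the stalk that recruits translation factors. Mrpl11 had signals of 309 and 324 in MKP, 199 and 256 in MK3, 232 and 192 in MK4 and 89.1, 225 and 169 in MK6, and its difference of -0.99 ± 0.32 did not pass (limma, adjusted p = 0.099). All 3 MK6 arrays were below both MKP arrays, but 2 other probe sets of Mrpl11 above the filter gave 0.0028 and -0.16. Mrpl12 was 455 and 357 in MKP, 235 and 279 in MK3, 265 and 260 in MK4 and 195, 318 and 224 in MK6, a difference of -0.71 ± 0.25 (adjusted p = 0.12). Mrpl4, whose bacterial counterpart lines the exit tunnel, had 506 and 458 in MKP, 444 and 354 in MK3, 353 and 352 in MK4 and 252, 313 and 278 in MK6, and its difference was -0.75 ± 0.21 (adjusted p = 0.0631). Its signal was lower at each stage than at the one before, with no overlap of arrays between neighbouring stages. The nearest arrays of MK3 and MK4 were almost level, at 354 and 353. The call appeared without MK6 replicate 2, at -0.83 (adjusted p = 0.0468), as did that of Mrpl11 at -1.26 (adjusted p = 0.0299).

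On the positive side of the same group, Mrpl22, whose bacterial counterpart also lines the tunnel, had signals of 421 and 306 in MKP, 279 and 351 in MK3, 292 and 308 in MK4 and 271, 567 and 826 in MK6. The MK6 arrays spread widely and overlapped all earlier stages, and the difference was 0.47 ± 0.38 (adjusted p = 0.46). Mrpl32, which in mice is processed by the m-AAA protease before it enters the ribosome, had 283 and 297 in MKP, 289 and 269 in MK3, 427 and 336 in MK4 and 267, 480 and 451 in MK6, with a difference of 0.40 ± 0.27 (adjusted p = 0.38). Both MK4 arrays and MK6 replicates 2 and 3 were above the 4 arrays of the first stages, and MK6 replicate 1 was not.

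The 20 mitochondria-specific proteins of the large subunit included no call at either sign and had a median of -0.15. At an unadjusted p below 0.05 in limma 2 were lower (10.0%, background 11.2% in this direction). Mrpl37 had 176 and 97.4 in MKP, 146 and 103 in MK3, 109 and 66.4 in MK4 and 38.8, 77.9 and 111 in MK6, a difference of -0.77 ± 0.39 (adjusted p = 0.25) with overlapping arrays. Mrpl39, which resembles a tRNA synthetase, had 415 and 353 in MKP, 303 and 381 in MK3, 313 and 251 in MK4 and 344, 590 and 917 in MK6, and its difference was 0.56 ± 0.34 (adjusted p = 0.33). Its other probe set above the filter gave -0.11, so the direction was not shared between the probe sets. Mrps18a, which carries a small-subunit symbol but sits in the large subunit, was singled out after its values were seen. Its signals were 326 and 274 in MKP, 233 and 250 in MK3, 216 and 232 in MK4 and 171, 205 and 193 in MK6, and the difference was -0.62 ± 0.21 (adjusted p = 0.11). Mrpl4 and Mrps18a were the only 2 of 74 members whose arrays were lower without overlap in all 3 successive steps (background 0.245%), and 0 of 74 were higher in all 3 (background 0.223%). For both the lack of overlap rested on a narrow gap between MK3 and MK4, 354 against 353 for Mrpl4 and 233 against 232 for Mrps18a.

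Among the 9 mitochondria-specific small-subunit genes 1 fell (Mrps34, background 3.03% in this direction), with a median of -0.083. Among the 15 small-subunit genes with bacterial counterparts none was called, with a median of -0.080. At an unadjusted p below 0.05 in limma 2 of the 15 were lower (13.3%, background 11.2% in this direction). Mrps9 had the highest difference of all members, 0.57 ± 0.30 (adjusted p = 0.26). Its signals were 75.1 and 79.0 in MKP, 93.6 and 70.1 in MK3, 150 and 95.2 in MK4 and 151, 87.2 and 136 in MK6, so the MK4 and MK6 arrays lay above the MKP arrays. Its 3 other probe sets above the filter, dimmer on average than the one used, gave 0.67, 0.28 and -0.099. Mrps36, which is no longer counted as a ribosomal protein and belongs to the 2-oxoglutarate dehydrogenase complex, had 338 and 269 in MKP, 393 and 349 in MK3, 327 and 272 in MK4 and 439, 352 and 404 in MK6, with a difference of 0.38 ± 0.22 (adjusted p = 0.31).

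**Figure D2:**
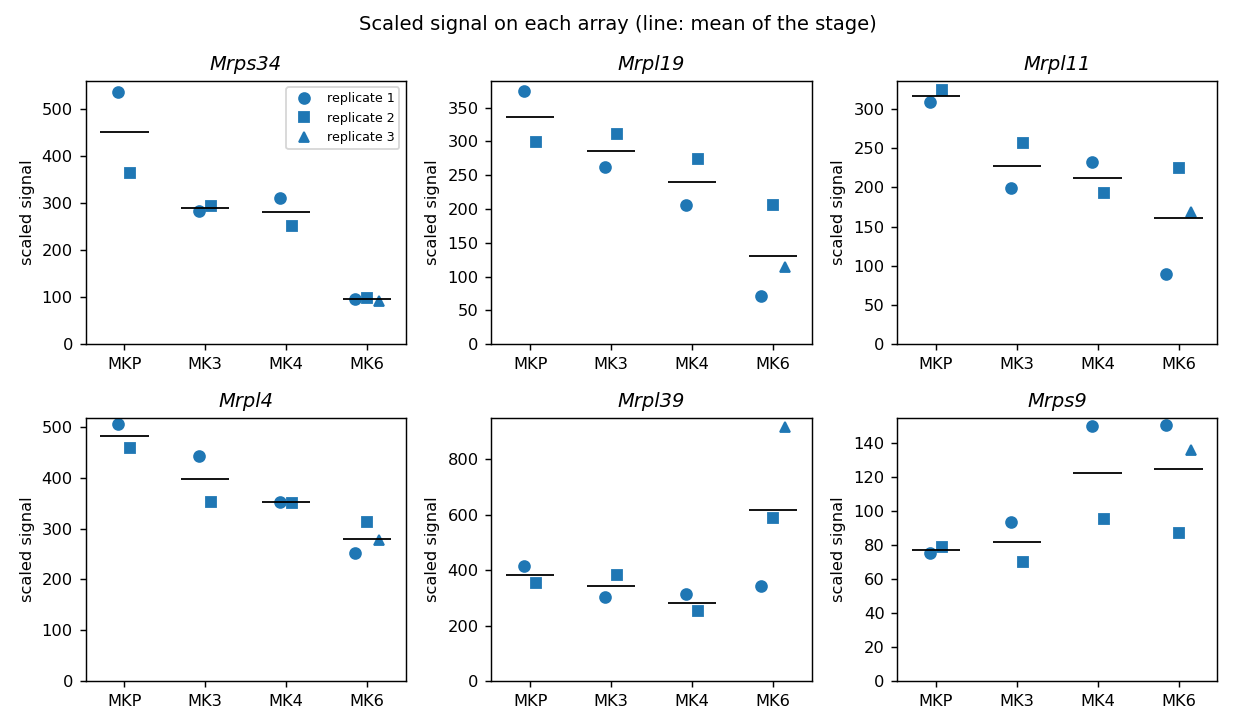
Scaled signal (y axis, linear from 0) on each array of MKP, MK3, MK4 and MK6 (x axis) for Mrps34, Mrpl19, Mrpl11, Mrpl4, Mrpl39 and Mrps9, with 1 point per array and a line at the stage mean. For Mrps34 the 3 MK6 points lie between 91.9 and 98.5 under all earlier points, whereas for Mrpl39 the MK6 points run from 344 to 917.

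Of the 30 members with several probe sets above the filter, 17 had probe sets that differed in the sign of the MK6 minus MKP difference, with a median spread of 0.43 between the lowest and the highest. The spread passed 1 log2 unit for Mrps11, Mrpl17 and Mrpl33. The probe set used for Mrps11, with 160, 174 and 127 in MK6 against 251 and 224 in MKP, gave -0.59, and another, with 93.8, 42.5 and 51.1 in MK6 against 9.27 and 14.6 in MKP, gave 1.47. For Mrpl17 the values were -0.39 and 0.95 and for Mrpl33 -0.00056 and 1.21. The probe sets with the positive values were dim: their MKP signals were under the filter level of 46.7 for all 3 genes, and for Mrps11 both were also under the pseudocount of 15.2, so the sizes of these differences are uncertain. Signals of different probe sets cannot be ranked against each other. Over the 9 arrays they ran from 72.6 to 134 for Mrpl54 and from 74.7 to 119 for Mrpl33, and from 438 to 856 for Mrpl13, 440 to 880 for Mrpl57 and 598 to 881 for Mrps14.

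In the first step, from MKP to MK3, no member was called (limma, 2 members at an unadjusted p below 0.05, Mrps34 and Mrpl12, lowest adjusted p = 0.47), beside 0.0639% of all genes called and 9.89% at an unadjusted p below 0.05. The median member difference was -0.17, against -0.039 over all genes, and 56 of 74 were negative (75.7%, against 54.2% of all genes). Both MK3 arrays were below both MKP arrays for 30 members (40.5%, background 26.5%) and above them for 7 (9.46%, background 19.4%). The most negative values were those of Mrpl12 (-0.62 ± 0.27), Mrps16 (-0.61 ± 0.34) and Mrps34 (-0.59 ± 0.25), and the most positive those of Mrps6 (0.45 ± 0.25), Mrps24 (0.30 ± 0.29) and Mrps36 (0.28 ± 0.24). Mrps16 had 264 and 333 in MK3 against 484 and 441 in MKP, and Mrps6 had 177 and 164 in MK3 against 137 and 106 in MKP, neither with overlap. The median was -0.088 without MKP replicate 1, -0.27 without MKP replicate 2 and -0.11 without MK3 replicate 1.

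From MK3 to MK4 no member was called and none had an unadjusted p below 0.05 in limma (lowest adjusted p = 0.999), beside 0.0106% of all genes called and 3.66% at an unadjusted p below 0.05. The median was -0.016, against 0.049 over all genes, and it changed sign between the arrays left out (-0.093 without MK4 replicate 1, 0.042 without MK4 replicate 2). For 65 of the 74 members (87.8%) the 95% interval of this step lay within 1 log2 unit of 0. The share was 77.8% of the cytosolic ribosomal protein genes, 77.1% of the respiratory chain and ATP synthase subunits and 51.2% of all genes. The most positive differences were those of Mrpl52 (0.67 ± 0.47), Mrps9 (0.49 ± 0.33) and Mrpl15 (0.44 ± 0.46), and the most negative those of Mrpl37 (-0.45 ± 0.43), Mrps7 (-0.35 ± 0.26) and Mrpl27 (-0.34 ± 0.24), a protein near the site where amino acids are joined. Mrpl52 had 390 and 271 in MK4 against 211 and 186 in MK3. Arrays did not overlap for 14 members lower in MK4 (18.9%, background 12.7%) and 8 higher (10.8%, background 17.6%).

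From MK4 to MK6 no member was called (limma, 3 at an unadjusted p below 0.05), beside 0.0213% of all genes called and 10.6% at an unadjusted p below 0.05. These 3 were Mrps34 at -1.42 ± 0.23 (adjusted p = 0.082), Mrpl19 at -0.90 ± 0.35 (adjusted p = 0.40) and Mrpl39 at 0.99 ± 0.34 (adjusted p = 0.33), each with arrays that did not overlap. Without MK6 replicate 2 Mrps34 passed in this step, at -1.44 (adjusted p = 0.0324), when 121 genes were called in all. Mrpl22 was at 0.72 ± 0.38, Mrpl47 at 0.49 ± 0.30 and Mrpl52 at -0.79 ± 0.43. Mrpl52 had 79.9, 253 and 283 in MK6 against 390 and 271 in MK4, and the low value was that of MK6 replicate 1. Arrays did not overlap for 7 members lower in MK6 (9.46%, background 9.88%) and 6 higher (8.11%, background 14.8%). The median was 0.019, against 0.088 over all genes, and lay between -0.057 without MK4 replicate 2 and 0.096 without MK6 replicate 1. The steps share arrays with each other and with the whole course, so their values are not independent.

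The other genes of mitochondrial translation, from lists drawn up for these pathways, were set against the same background, 5.84% of all genes called between MK6 and MKP. Of 4 mitoribosome proteins with other symbols none was called (limma, 0 at an unadjusted p below 0.05; median -0.29). Among these Gadd45gip1, a large-subunit protein near the tunnel exit, was at -0.79 and Dap3, a small-subunit GTP-binding protein, at -0.44. Of 7 translation factors 1 rose, Tufm, the elongation factor that brings aminoacyl-tRNA to the ribosome, by 0.98 ± 0.25 (limma, adjusted p = 0.0474), and Mtres1, which takes part in rescue of stalled ribosomes, was at 0.34. The calls of Tufm and, below, of Spg7 and Atp5g1 were close to the threshold. Calls of single genes outside the members were not followed through the alternative settings. Tufm had 138, 143 and 188 in MK6 against 86.2 and 58.1 in MKP, and 121 to 174 in MK3 and MK4, so both MKP arrays lay below all the others. Of 10 mitochondrial aminoacyl-tRNA synthetases none was called (0 at an unadjusted p below 0.05; median 0.10), with Sars2 at -0.42 and Iars2 at 0.22.

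Of 20 genes of mitoribosome assembly and ribosomal RNA modification 1 fell and none rose, with a median of -0.11. This was Spg7, a subunit of the m-AAA protease that processes Mrpl32 in mice, at -1.24 ± 0.31 (limma, adjusted p = 0.0438), with 27.4, 42.6 and 28.9 in MK6 against 107 and 88.8 in MKP. The 3 MK6 signals were under the filter level of 46.7, so the size is uncertain. The GTPase gene Mtg2 was at -1.19 (adjusted p = 0.12). Of 16 genes of mitochondrial transcription and messenger RNA handling none was called (0 at an unadjusted p below 0.05; median 0.035), with Hsd17b10, a subunit of the mitochondrial RNase P, at -0.83 and Mterf2 at 0.50. Among 9 nuclear regulators (median 0.068) 1 fell, Myc, a growth factor-induced transcription factor, by 2.19 log2 units (SE 0.45, adjusted p = 0.0201), with 74.6, 328 and 228 in MK6 against 804 and 959 in MKP. Its relative Mycn was at 1.18 (adjusted p = 0.22).

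Beside these, 3 of 25 nucleolar genes of cytosolic ribosome biogenesis fell (12%, background 3.03% in this direction) and none rose. At an unadjusted p below 0.05 there were 11 of the 25, all lower in MK6 (44.0%, background 11.2%). They were Fbl (-1.44), a ribosomal RNA methyltransferase, Nolc1 (-1.50), a nucleolar chaperone, and Rrp9 (-2.22), a small nucleolar RNP protein, while Nop58 at -1.59 did not pass (adjusted p = 0.078). The list's median was -0.72, against -0.13 for the mitochondrial ribosomal protein genes and 0.13 for all genes. Of 45 cytosolic ribosomal protein genes none was called (1 at an unadjusted p below 0.05; median 0.018), with Rpl39 at 0.76 and Rpl22l1 at -0.75. Of 83 respiratory chain and ATP synthase subunits 1 fell, Atp5g1, a form of the ring subunit of ATP synthase (-1.33, adjusted p = 0.0484), and the median was -0.043. Cox6b2, an isoform of a cytochrome oxidase subunit best known from testis, was at 1.41 (adjusted p = 0.062). In the first step, where the members had a median of -0.17, the medians were -0.64 for the nucleolar list, -0.40 for the mitoribosome proteins with other symbols, -0.33 for assembly, -0.33 for transcription, -0.28 for the aminoacyl-tRNA synthetases, -0.22 for the nuclear regulators, -0.20 for the cytosolic ribosomal proteins, -0.12 for the translation factors and -0.057 for the respiratory chain. The gaps between lists were not tested, and the comparisons share the MKP arrays.

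**Figure D3:**
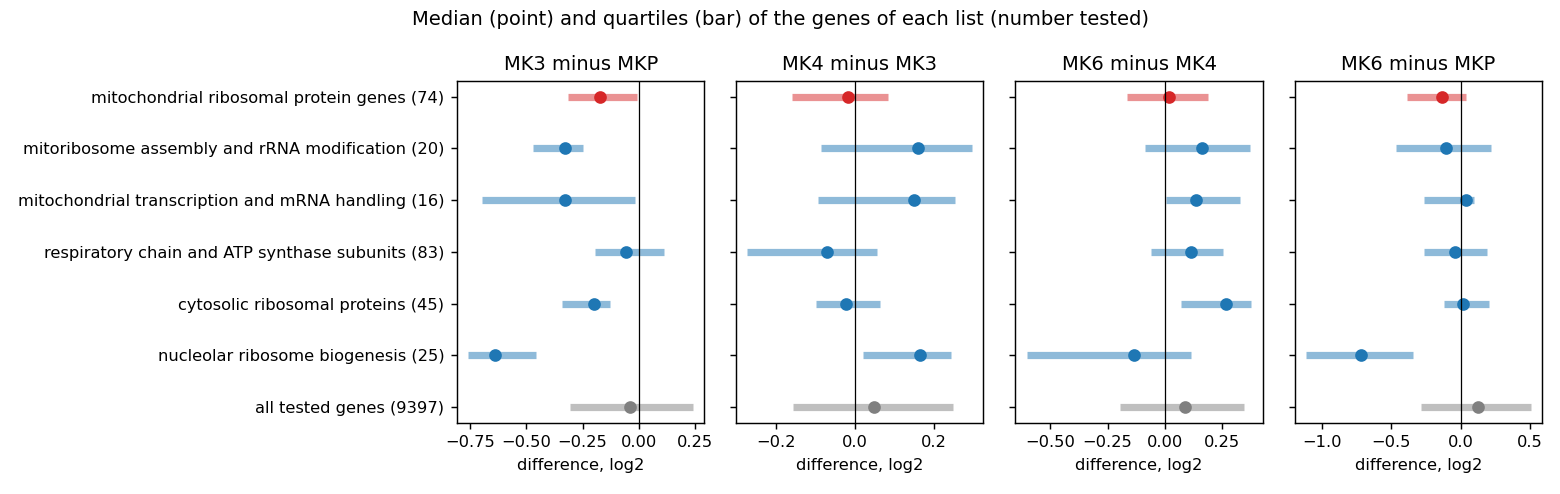
Median (point) and quartiles (bar) of the log2 differences in each gene list, with the number tested in brackets, for the steps MK3 minus MKP, MK4 minus MK3 and MK6 minus MK4 and for the whole course MK6 minus MKP (x axes, each with its own range). In the whole course the nucleolar list has its median at -0.72, the mitochondrial ribosomal protein genes at -0.13 and all tested genes at 0.13.

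Among the 65 promoter windows, 23 held the ETS letters (35.4%), 21 the NRF1 letters (32.3%) and 12 the YY1 letters (18.5%), searched on both strands. The shares were 17.6%, 13.8% and 7.23% among the 7563 windows of the other tested genes and 9.12%, 8.06% and 6.48% among all 27025 windows. At least 1 of the 3 was found in 41 member windows (63.1%), against 33.3% of the other tested genes and 21.0% of all. The E-box CACGTG (7.69%, against 10.0% and 7.24%), the CRE letters TGACGTC (4.62%, against 5.41% and 3.33%) and CCAAT (38.5%, against 37.7% and 37.9%) were found in shares near those of the other tested genes. None of the 6 motifs contains another, but matches of some pairs can share letters. Sharing was counted for ETS and YY1 only, and happened in 0 member windows. The median GC content was 58.0% in the members, close to 60.3% in the other tested genes and above 52.7% in all windows. The median number of CpG dinucleotides was 21 in the members, 20 in the other tested genes and 7 in all windows, so the shares over all windows come from sequence of another composition.

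The 41 members with at least 1 of the 3 motifs had a median MK6 minus MKP difference of -0.11 and the 24 with none -0.019, and in the other tested genes the medians were 0.036 and 0.17. Mrps34 and Mrpl19, which have no window, are in neither group of members. Mrpl37 (-0.77) and Mrpl12 (-0.71) hold none of the marked letters in the 100 bases shown. Mrps18a (-0.62) holds 1 ETS and 1 NRF1 match there and Mrpl52 1 ETS and 1 YY1 match. Mrpl32 (0.40) holds 3 NRF1 matches, of which a pair stands end to end, and Mrpl17 (-0.39) holds 2, so members with NRF1 letters near the start lay on both sides of 0. No match shows that a factor was bound in these cells, and a window without a match says only that these letters are not in it.

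**Figure D4:**
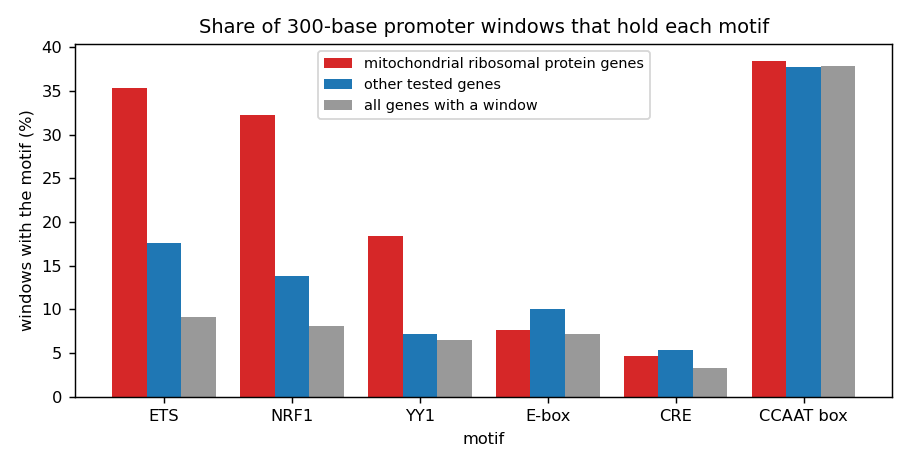
Share of 300-base promoter windows (y axis, percent) that hold each motif (x axis), for the 65 mitochondrial ribosomal protein genes, 7563 other tested genes and all 27025 genes with a window. The members' bars are at 35.4%, 32.3% and 18.5% for ETS, NRF1 and YY1, above those of the other tested genes, and at 38.5% for CCAAT, beside 37.7%.

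Another gene started within 1000 bases on the opposite strand, facing away, for 23 of the 65 members (35.4%), against 16.1% of the other tested genes and 10.5% of all genes in the table. Mrps11 and Mrpl46 were the only members that formed such a pair with each other, with starts 42 bases apart and the 41 bases printed above between them. They differed by -0.59 ± 0.31 and 0.077 ± 0.30 between MK6 and MKP, neither past the threshold. Of the 21 partners that are not members 13 were tested and 1 was called, Ncapd2, a condensin subunit (-1.44, adjusted p = 0.0444), whose partner Mrpl51 was at -0.13. Several partners are themselves genes of mitochondria or of translation: Mrps12 (-0.26) starts 147 bases from Sars2 (-0.42), Mrpl47 (0.21) starts 308 bases from Ndufb5 (-0.25), a complex I subunit, and Mrpl49 (-0.25) starts 192 bases from Fau (-0.53), the source of a cytosolic ribosomal protein. None of these 6 values passed the test.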

How the data were processed

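The deposited values are linear probe set intensities of 9 single-colour Affymetrix MOE430A arrays, which the authors computed by MAS5, per the submitters' processing notes. Neither its version nor its settings are stated in the sources used here. Detection calls were not used. Per the labels, biotin-labelled RNA was copied from oligo-dT-primed cDNA. Each array was multiplied to a common trimmed mean (161, 2% off each end), and a pseudocount of 15.2 (the 20th percentile) was added before log2. Probe sets had to exceed 46.7 (the 40th percentile) on 2 or more arrays. The brightest such probe set stood for a gene, which left 9397 genes. Of the 22690 probe sets, 20380 named 1 gene, 691 several genes and 1555 none, and 64 were controls. Of the 20380, 20351 were found in the RefSeq table (GRCm38.p6) for current symbols. Scaling leaves out any change in total RNA per cell, and the number of arrays limits the precision.

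A mean per stage was fitted to all 9 arrays using the lmFit and trended eBayes functions of limma 3.58.1 (R 4.3.3), with 5 residual degrees of freedom. Benjamini-Hochberg adjustment ran over all tested genes within a comparison, and genes were called at an adjusted p below 0.05. Values after ± are standard errors. The script was tested on simulated data.

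The members, roles, lists and tests were chosen with earlier results of these data known. Members named are those called, the 5 largest differences each way for MK6 against MKP and 3 for each step, the 3 brightest and dimmest, and those whose probe sets differ in sign by over 1 log2 unit. From each other list the called genes and the 2 largest differences were named. Other genes named were chosen after their values were seen. Alternatives were another pseudocount, filter, scaling, probe set rule or variance model, only the arrays compared, the actin ratio as covariate, and arrays left out.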

Additional observations from a re-analysis of the deposited data

How the results depend on the processing

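No paired analysis was possible because the labels give no replicate number shared across stages. Over 21 alternatives the 31 named member results gave 651 values. Of these, 626 kept their side of the threshold, 16 lost a call, 9 gained one and none that was called changed sign. Only 2 of the 31 were calls in the main fit, Mrps34 and Mrpl19 for MK6 against MKP. All 16 losses fell on these 2, with 2 for Mrps34 and 14 for Mrpl19. Among values that stayed uncalled, 16 changed sign. For MK6 against MKP the 2 member calls became 1 with no filter, quantile normalization, a common median, no intensity trend or only the stages compared, 0 with the actin covariate, and 0 to 5 with single arrays left out. With MK6 replicates 2 and 3 out (replicate 1 alone, assumed to vary like the other groups) 15 members were called beside 1923 genes in all (20.5%), and 4 for MK6 against MK4. Leaving out replicates 1 and 3 was added after seeing the data, because replicate numbers in an earlier analysis ran in another order. Replicate 2 then stood alone, with medians of -0.12 over the members and -0.0046 over all genes. For MK6 against MK4 single arrays left out gave 0 calls, except 1 without MK6 replicate 2, where more genes were called in all, as given above. In the F test 1 member was called with another pseudocount, filter, scaling, probe set rule or variance model, beside 1.11% to 3.42% of all genes. With the actin covariate the count was 0. It also moved when arrays were left out, as did the number of calls over all genes. The median member difference for MK6 against MKP moved from -0.13 to -0.38 with MK6 replicates 2 and 3 out and to -0.34 with the actin covariate. Both moves were larger than the spread of the member median between replicate arrays (0.18). For MK6 against MK4 the median moved from 0.019 to -0.16 with MK6 replicates 2 and 3 out, a move about equal to that spread. The cause of these moves was not tested, and the actin ratio is highest in MK6, so it and the stage cannot be told apart.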
